A study of Mus musculus and Homo sapiens
Mus musculus with 12 samples.

Results

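The 3T3 nuclei of this series are those of NIH/3T3, an established line of mouse embryo fibroblasts, whose cells were mixed with those of the human line 293T before their nuclei were sequenced by snHH-seq, a single-nucleus total RNA method in which random primers copy RNA along its whole length and each copied fragment is counted by a unique fragment identifier (UFI). The nuclei were chosen by measured values: a barcode was taken as a 3T3 nucleus when at least 90% of its UFIs fell on mouse genes. The rule found 17062 nuclei among 40304 barcodes of the species-mix libraries, and the whole series held 51502 barcodes with those of mouse brain. Of the 5 mix libraries, 1 was made with reverse transcription primers that carried a second cell barcode (here the preindexed library), and the other 4 were loaded into the droplet device at 300, 600, 1200 and 2000 nuclei per microlitre (here the loading libraries). The labels do not say whether the primers of the loading libraries carried that barcode. The lines were cultured in medium with fetal bovine serum, and no treatment is labelled. Each mix library stands alone under its label, so values are given per library, with no p-value between mix libraries. Nuclei of mouse brain, in 2 libraries of frozen tissue without and 2 with the preindex, and 2 of fresh tissue without and 1 with it by their titles, give the comparison over libraries. The labels give no strain, genotype or age for the brains, and the study's methods name wild-type males of the C57BL/6J strain, some weeks old.

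Fibroblasts build and remodel the collagen-rich matrix of connective tissue, answer growth factors of serum through receptor kinases, and carry the load on their actin cables to the YAP and TEAD proteins, which switch on genes for matrix and adhesion. 3T3 cells are known for stopping division when they touch, for their response to fresh serum, and for the loss of the Ink4a/Arf locus. A nucleus holds mainly unspliced and nuclear-retained RNA, so counts here follow the length of a gene as well as its level, and values are compared between libraries, not between genes.

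The preindexed library held 1170 3T3 nuclei, 50.4% of its 2321 barcodes (95% exact binomial interval 48.4 to 52.5, counting error only). The loading libraries held 1668, 3023, 3725 and 7476, in order of loading, which was between 41.3% and 43.9% of their barcodes. The median 3T3 nucleus had 10898 UFIs and 3605 mouse genes in the preindexed library. In the loading libraries the median was 2338.5 UFIs at 300 nuclei per microlitre and 1485, 1231 and 775 at the higher loadings. Mouse UFIs of 3T3 nuclei summed to 14894723 in the preindexed library and to between 4990200 and 7023744 in each loading library. At an equal depth of 1000 UFIs per nucleus the median number of mouse genes was 712 in the preindexed library and 701 to 734 in the loading libraries.

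**Figure D1:**
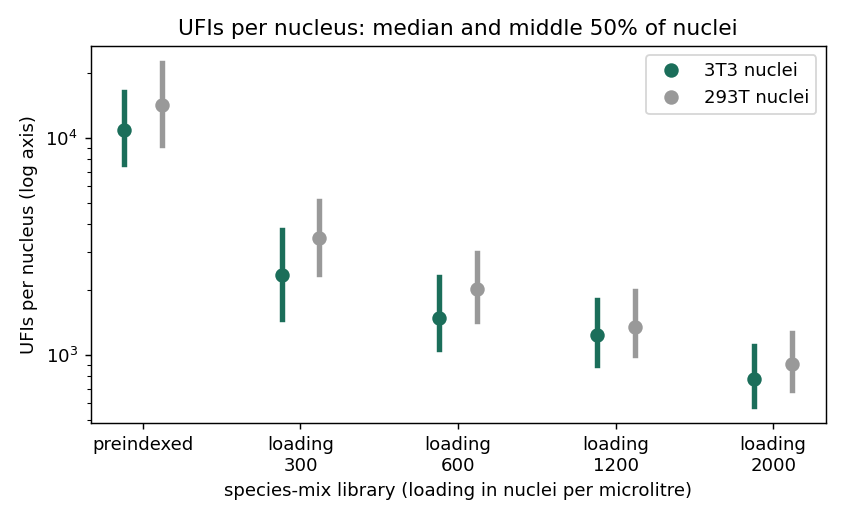
UFIs per nucleus on a log axis for 3T3 and 293T nuclei in the 5 species-mix libraries, with points at the median and bars over the middle 50% of nuclei. The median 3T3 nucleus had 10898 UFIs in the preindexed library and 775 at the highest loading, and the 3T3 median lay below the 293T median in every library.

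Few nuclei lay near the species threshold. In the preindexed library the lowest mouse share inside the rule was 93.1% and the highest outside it was 64.1%. In the loading libraries 126 barcodes lay just inside, between 90% and 92%, and 58 just outside, between 88% and 90%. The median 3T3 nucleus carried 1.45% human UFIs in the preindexed library and 1.79% to 2.12% in the loading libraries. Barcodes shared between libraries were rare, with at most 15 of 3T3 in common between any pair of libraries.

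The preindexed library stood apart from the other 4. Levels are given as CPM, a gene's UFIs scaled to 1000000 mouse UFIs of the 3T3 nuclei in a library. Over genes at 50 CPM or more, none of the 6 pairs of loading libraries had a gene past 2-fold, while 40.0% to 40.8% of genes were past 2-fold between the preindexed library and each loading library. A chi-square per gene, which is about 1 when 2 libraries differ by counting error alone, averaged 1.51 to 2.21 between loading libraries and 222 to 270 against the preindexed one. Values are therefore given for the preindexed library and for the loading libraries apart. Culture, preparation and primer cannot be told apart between them.

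The label was checked against cell type markers. All 8 fibroblast markers were measured in every library, the lowest being Twist1 at 3.41 to 6.38 CPM. Of other matrix and adhesion genes in the lists, Lum and Postn were low in every library. Dcn and Thy1 were low in the loading libraries, with values below. Col1a1, which encodes a chain of type I collagen, was at 610 CPM in the preindexed library and 74.9, 88.7, 87.2 and 90.8 CPM at rising loading. Col1a2, the gene of its partner chain, was at 650 CPM and at 340, 356, 360 and 343 CPM. The 6 epithelial markers summed to 1.14 CPM in the preindexed library and to 1.42 to 2.55 CPM in the loading libraries, with Krt18 and Cldn4 listed at 0. The 6 immune markers summed to 2.75 CPM and 1.95 to 3.61 CPM, with Lyz2 listed at 0 and Csf1r the most abundant. The 6 muscle markers summed to 3.29 CPM and 1.85 to 4.78 CPM, with the factors Myod1 and Myog listed at 0. Among endothelial markers Pecam1 and Tek stood at 6.69 to 12.3 CPM over the 5 libraries, while Kdr, the receptor of vascular growth factor, was at no more than 0.997 CPM. Of the 6 cartilage and bone markers only Sox9, a cartilage factor, passed 5 CPM in any library, at 53.4 CPM in the preindexed library and 2.00, 1.19, 0 and 0.854 CPM in the loading libraries, while Acan and Col2a1, the matrix genes of cartilage, were at no more than 0.403 CPM. Summed CPM in the preindexed and in the loading libraries was 33.5 and 25.3 to 32.2 for endothelial, 26.7 and 12.4 to 16.2 for neuron, and 55.5 and 3.54 to 6.61 for cartilage and bone markers. It was 1.01 and 1.85 to 2.90 for adipocyte, 9.40 and 14.2 to 16.8 for kidney, and 3.49 and 2.85 to 6.13 for liver markers. Mouse UFIs found in 293T nuclei give the background, and for Col1a1 and Col1a2 these were 5.35 and 4.89 per 1000000 UFIs in the preindexed library. When each nucleus was thinned to 1000 UFIs, Col1a2 was seen in 43.7% of 3T3 and 0.618% of 293T nuclei of the preindexed library, and in 26.0% to 29.0% against 0.132% to 0.469% in the loading libraries. Without thinning, the shares for Col1a2 were 97.5% and 7.59% in the preindexed library. The thinned set left out 209, 638, 1236 and 5179 shallow 3T3 nuclei at rising loading.

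Most genes of the extracellular matrix were expressed, and most of these took a larger share of UFIs in the preindexed library. The 26 genes of the list summed to 9406 CPM in the preindexed library and to between 4022 and 4131 CPM in the loading libraries. Of 13609 genes with 20 UFIs or more in some library, 25.9% were past 2-fold higher in the preindexed library than in each of the loading libraries, and 11.1% were past 2-fold lower than in each. By that rule 17 of 23 matrix genes were higher and 1 was lower, with a median log2 ratio of 1.58. Fn1, which encodes fibronectin, the glycoprotein that links cells to collagen, was at 3201 CPM in the preindexed library and at 975, 953, 1024 and 1027 CPM at rising loading. Bgn, the small proteoglycan biglycan, was at 474 CPM against 6.21, 6.98, 7.25 and 8.54 CPM, a 58.5-fold ratio over the loading median after adding 1 CPM to each side. Thbs1, whose product thrombospondin activates TGF-beta, was at 745 CPM against 53.8 to 64.0 CPM. Lox, the enzyme that cross-links collagen, was at 655 CPM against 162 to 169 CPM. The single gene in the other direction was Col5a2, a chain of the fibril-starting type V collagen, at 167 CPM against 1355, 1285, 1273 and 1258 CPM. Mmp2, a gelatinase, was close in all 5 libraries, at 439 CPM and 330 to 359 CPM. Lum, the proteoglycan lumican, was listed at 0 in every library, where a count of 0 allows up to 0.201 CPM in the preindexed library, and Postn and Loxl2 were at no more than 0.177 CPM in any.

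**Figure D2:**
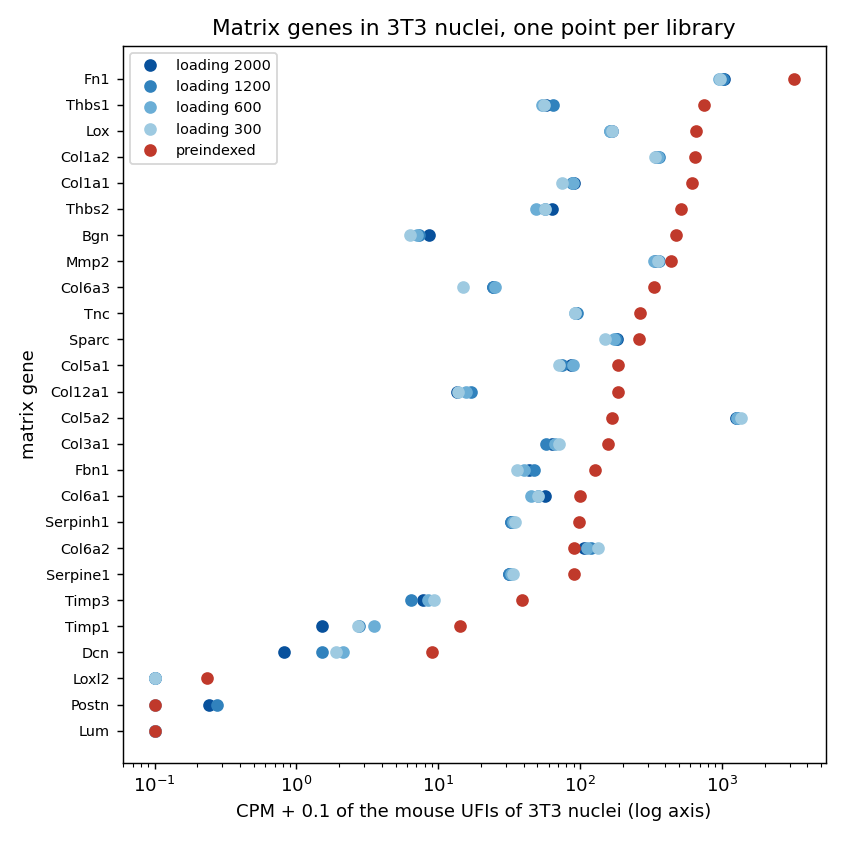
CPM plus 0.1 of the 26 matrix genes in 3T3 nuclei on a log axis, with 1 point per library, the preindexed library in red and the loading libraries in blue. The 4 blue points of a gene lie together, most red points lie to their right, and Col5a2 lies the other way at 167 against 1258 to 1355 CPM.

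The 16 regulators are factors of mesenchymal identity. They summed to 5929 CPM in the preindexed library and 5372 to 5552 CPM in the loading libraries. Of 13 with enough UFIs, 10 passed the 2-fold rule in neither direction, with a median log2 ratio of 0.43. The other 3 were higher and none was lower, where 25.9% of all genes were higher and 11.1% were lower. The higher share was thus near that of all genes. Prrx1, a homeobox gene of limb and connective tissue mesenchyme, was at 1685 CPM in the preindexed library and at 1115, 1173, 1165 and 1257 CPM at rising loading. Zeb1, a repressor of epithelial genes, was at 848 CPM and 1056 to 1074 CPM. Runx2, known as the master factor of bone, was at 707 CPM and 894 to 980 CPM, with the bone marker Bglap listed at 0. Tbx15 was at 434 CPM and 311 to 371 CPM. The 3 higher genes were Twist2, at 247 CPM against 36.1 to 42.6 CPM, Snai1 and Foxc1. Tcf21 and Meox1, factors of other mesenchymal lineages, were listed at 0 in all 5 libraries.

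The receptors of the list bind growth factors, collagen or other ligands at the cell surface. All 13 were above 5 CPM in each of the 5 libraries, with 3 higher and 1 lower in the preindexed library by the 2-fold rule, shares near the 25.9% and 11.1% of all genes. Pdgfra, the receptor of platelet-derived growth factor, was at 372 CPM in the preindexed library and at 571, 598, 596 and 555 CPM in the loading libraries. Tgfbr3, the coreceptor betaglycan, was nearly level at 980 CPM and 940 to 993 CPM. Igf1r, the IGF1 receptor, was at 1606 CPM against 1021 to 1046 CPM, and its ligand Igf1 was at no more than 1.80 CPM in any library. Ddr2, a receptor for fibrillar collagen, was at 486 CPM and 456 to 487 CPM. Lrp1, the endocytic receptor, was higher in the preindexed library at 790 CPM against 183 to 207 CPM. Egfr was at 15.98 CPM and 21.4 to 22.1 CPM.

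Of the secreted factors 8 of 17 were higher and 1 was lower in the preindexed library, against 25.9% and 11.1% of all genes. Fgf7, a fibroblast product that acts on epithelium, was at 1130 CPM in the preindexed library and at 40.3, 40.9, 43.5 and 39.2 CPM in the loading libraries. The chemokine Ccl2, which draws monocytes, was at 238 CPM against 4.01, 4.94, 3.01 and 4.27 CPM. At 1000 UFIs per nucleus Ccl2 was seen in 19.4% of 3T3 nuclei of the preindexed library (95% interval 17.2 to 21.8), against 0.281% to 0.587% in the loading libraries, and in none of the 293T nuclei of the preindexed library. Csf1, the macrophage growth factor, was at 172 CPM against 10.2 to 14.5 CPM. The gene in the other direction was Tgfb2, at 26.7 CPM against 89.6 to 105 CPM. Hgf and Pdgfc passed in neither direction, with Pdgfc at 239 CPM and 219 to 248 CPM. Bmp4 was listed at 0 throughout.

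Integrins tie the matrix to focal adhesions. Of 16 integrin and adhesion genes, 10 passed in neither direction, 5 were higher and 1 was lower in the preindexed library, also near the 25.9% and 11.1% of all genes. Itgb1, the common beta chain, was at 360 CPM and 283 to 320 CPM, and Itga5, its fibronectin-binding partner, was at 229 CPM and 169 to 179 CPM. Cd44, the hyaluronan receptor, was at 443 CPM against 54.7 to 57.1 CPM. Vcl, which encodes vinculin of the focal adhesion, was lower at 401 CPM against 979 to 1088 CPM.

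In the actin and contraction list 8 of 16 genes were higher and 1 was lower in the preindexed library, beside 25.9% and 11.1% of all genes. Actb, cytoplasmic beta-actin, was at 1853 CPM in the preindexed library and at 272, 287, 254 and 281 CPM in the loading libraries. Actg1, cytoplasmic gamma-actin, was at 86.7 CPM against 1.53 to 3.89 CPM. Vim, the intermediate filament of mesenchymal cells, was at 649 CPM against 129 to 141 CPM. Tpm1, a tropomyosin that lies along the actin filament, was the single gene in the other direction, at 139 CPM against 873, 856, 838 and 802 CPM. Cald1, the caldesmon gene, was at 685 CPM and 655 to 678 CPM, and Myh9, a nonmuscle myosin gene, was at 919 CPM and 676 to 727 CPM. The myofibroblast genes Tagln and Cnn1 were at no more than 3.22 CPM, and Acta2 was at 17.7 CPM and 3.92 to 6.55 CPM.

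In the YAP and TEAD pathway, Yap1, the coactivator, was at 268 CPM in the preindexed library and at 265 to 285 CPM in the loading libraries. Tead1, a DNA-binding partner of it, was at 994 CPM and at 1100, 1103, 1091 and 1126 CPM. Of 16 members, 11 passed in neither direction, 2 were higher and 3 were lower in the preindexed library, where 25.9% and 11.1% of all genes were. The higher ones were the secreted targets Ccn1, at 123 CPM against 21.5 to 25.8 CPM, and Ccn2, at 34.6 CPM against 1.20 to 3.58 CPM. The lower ones were Tead4, another DNA-binding partner, Crim1 and Ajuba, with Tead4 at 253 CPM against 579 to 647 CPM. Targets of the pathway thus passed in both directions.

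Promoters of the list were searched for the letters that TEAD factors bind. Of 13 members with a promoter in the RefSeq table (GRCm38.p6, 250 bases before to 50 after the gene start), 10 held the TEAD core letters GGAATG (or CATTCC on the other strand), which is 76.9%, against 16.6% of 27025 genes. A gene with several listed promoters counted when any of them held the letters. Of 15 matched matrix genes 3 held them, and 4 held the CCAAT box letters, which is 26.7% against 41.1% of all genes. The letters TATAAA were in 4 of 15 matrix genes and 1 of 13 of the pathway, against 15.7% of all genes. A match is a description of letters and no binding was measured. The 250 bases upstream of the start are shown for 4 YAP targets of the list and for Col1a2, whose partner Col1a1 had no entry in the table. Capitals mark these letters of the TEAD core, the CCAAT box and the TATA box or their reverse complements, and each sequence is on the strand of its gene.
Ccn1, minus strand, chr3:145649986-145650235: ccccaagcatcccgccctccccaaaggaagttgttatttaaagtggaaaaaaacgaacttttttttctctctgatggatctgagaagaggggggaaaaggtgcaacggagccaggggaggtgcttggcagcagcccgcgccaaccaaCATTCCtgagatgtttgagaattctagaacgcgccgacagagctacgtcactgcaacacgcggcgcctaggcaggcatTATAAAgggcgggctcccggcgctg
Ankrd1, minus strand, chr19:36119845-36120094: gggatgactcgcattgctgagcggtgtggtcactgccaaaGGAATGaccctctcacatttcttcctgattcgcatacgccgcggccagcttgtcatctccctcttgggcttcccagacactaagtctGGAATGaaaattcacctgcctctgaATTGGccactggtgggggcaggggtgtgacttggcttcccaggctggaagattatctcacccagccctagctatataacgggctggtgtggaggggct
Amotl2, plus strand, chr9:102717554-102717803: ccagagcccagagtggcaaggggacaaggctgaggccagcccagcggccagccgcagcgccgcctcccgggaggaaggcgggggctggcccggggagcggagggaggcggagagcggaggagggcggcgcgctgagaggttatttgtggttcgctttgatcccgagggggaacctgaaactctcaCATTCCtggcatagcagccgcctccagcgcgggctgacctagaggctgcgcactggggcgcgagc
Ajuba, minus strand, chr14:54577662-54577911: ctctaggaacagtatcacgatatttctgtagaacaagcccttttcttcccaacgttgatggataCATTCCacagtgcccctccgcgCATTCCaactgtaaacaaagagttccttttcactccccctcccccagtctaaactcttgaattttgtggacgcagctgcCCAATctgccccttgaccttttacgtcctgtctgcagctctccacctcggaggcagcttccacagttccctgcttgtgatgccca
Col1a2, plus strand, chr6:4505368-4505617: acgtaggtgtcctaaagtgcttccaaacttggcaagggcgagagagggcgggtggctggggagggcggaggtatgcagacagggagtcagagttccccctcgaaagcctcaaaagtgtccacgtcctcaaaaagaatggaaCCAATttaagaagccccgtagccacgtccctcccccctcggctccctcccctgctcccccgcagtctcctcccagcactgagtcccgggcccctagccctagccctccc
In these windows the GGAATG letters began 103 bases before the start of Ccn1, 210 and 123 bases before Ankrd1, 65 bases before Amotl2, and 186 and 164 bases before Ajuba. In the 3T3 nuclei Ccn1 was 5.14-fold higher in the preindexed library, Ajuba was at 16.4 CPM against 43.9 to 52.8 CPM, Amotl2 was at 43.9 CPM against 51.0 to 66.9 CPM, and Ankrd1 stayed at or under 4.03 CPM. The letters were shared by genes higher, lower and in neither group.

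Immediate early genes answer serum and stress. Of 18 members, 11 were higher and 1 was lower in the preindexed library, where 25.9% of all genes were higher and 11.1% were lower. Egr1, a zinc finger factor induced by serum, was at 144 CPM in the preindexed library (95% Poisson interval 138 to 150) and at 1.00, 0.511, 0.354 and 0.427 CPM in the loading libraries, where it rested on 5, 3, 2 and 3 UFIs. Fosl1 was at 97.8 CPM against 2.61 to 5.66 CPM. Fos, the founding member of its family, was at no more than 0.47 CPM in any library. Fosl2 passed in neither direction, at 280 CPM against 469 to 536 CPM, and Atf3, a stress factor, was the lower gene at 1.34 CPM against 8.68 to 14.3 CPM. Klf6 was at 59.4 CPM and 59.3 to 67.3 CPM.

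The sums of the cell cycle lists differed in opposite directions. Genes of S phase summed to 1123 CPM in the preindexed library and to 470 to 476 CPM in the loading libraries, with 17 of 22 higher and none lower. Mcm4, a subunit of the replicative helicase, was at 56.9 CPM against 3.75 to 5.61 CPM, and Pcna, the sliding clamp, was at 18.1 CPM against 3.07 to 5.01 CPM. Genes of G2 and M phase summed to 1568 CPM in the preindexed library and to 2521 to 2707 CPM in the loading libraries, with 4 of 22 higher and 7 lower. Over all genes 25.9% were higher and 11.1% were lower. Tpx2, a spindle assembly factor, was at 132 CPM against 384 to 414 CPM, and Top2a, the topoisomerase of mitotic chromosomes, was at 242 CPM and 268 to 293 CPM. Mki67, a mark of cycling cells, was among the higher genes, at 182 CPM against 27.9 to 35.7 CPM.

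Cdkn2a, the gene of the Ink4a and Arf proteins, had 1 UFI in the preindexed library and 2 in each loading library, under the 0.201 CPM and 0.427 to 0.601 CPM that a count of 0 would allow. Its neighbour Cdkn2b had at most 3 UFIs in any library. Its human counterpart CDKN2A in the 293T nuclei of the same libraries was at 99.6 CPM and 130 to 149 CPM. Among other inhibitors Cdkn1a, a p53 target, was at 32.8 CPM and 29.5 to 36.2 CPM. Trp53 was at 73.7 CPM against 10.9 to 14.9 CPM. Mdm2 and Mdm4, the brakes on p53, were lower in the preindexed library, with Mdm2 at 94.5 CPM against 343, 353, 341 and 338 CPM. Ccnd1, the cyclin that carries the growth factor signal to the cycle, was at 46.7 CPM against 0.341 to 0.712 CPM, while Ccnd2 was at 105 CPM against 48.9 to 52.7 CPM.

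Of 9 nuclear and noncoding RNAs with enough UFIs, 5 were higher and 2 were lower in the preindexed library, against 25.9% and 11.1% over all genes. Malat1, which stays in nuclear speckles, was at 7156 CPM in the preindexed library and at 25141, 23717, 25265 and 25335 CPM in the loading libraries. It was the gene with the highest median share of UFIs over the 5 libraries, and Cmss1, Tspan5 and Neat1 were also among the 10 highest, a ranking that depends on gene length. As background, mouse Malat1 was seen in 1.85% of 293T nuclei of the preindexed library and in 13.9% to 17.6% of those of the loading libraries at 1000 UFIs. Neat1, the scaffold of paraspeckles, was at 8311 CPM against 3650 to 4160 CPM. Kcnq1ot1, an imprinted antisense RNA, was at 503 CPM against 91.3 to 102 CPM. H19 was listed at 0 throughout.

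Hox genes keep the position along the body axis that a cell had in the embryo. Of 39 mouse Hox genes, 3 were at 5 CPM or more in all 5 libraries, namely Hoxb3, Hoxb6 and Hoxc4, and 31 were under 5 CPM in all of them. Over 54434 mouse features, 8203 were at 5 CPM or more in all 5 libraries and 43478 were under it in all. The share of Hox genes under 5 CPM was thus near that of all features. Hoxb3 was at 29.2 CPM in the preindexed library and at 29.3, 31.5, 33.8 and 26.5 CPM in the loading libraries. Hoxb6 was at 29.0 CPM against 8.18 to 12.4 CPM. The posterior genes Hoxa10, Hoxa11 and Hoxa13, Hoxc10 to Hoxc13 and Hoxd10 to Hoxd13 were at or under 0.269 CPM. Of the 17 Hox genes listed at 0, 7 were also listed at 0 in the human counts, among them Hoxa4, Hoxa5 and Hoxc6, which was so for 1050 of 16802 symbols matched between the species.

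The 10 genes that differed most among the libraries all set the preindexed library against the other 4. By the ratio of the highest to the lowest of the 5 libraries, among genes with a median of 50 CPM or more, the leading gene was Galntl6, a glycosyltransferase-like gene, at 8.997 CPM in the preindexed library and at 1762, 1782, 1879 and 1749 CPM in the loading libraries. At 1000 UFIs per nucleus Galntl6 was seen in 0.342% of 3T3 nuclei of the preindexed library and in 46.3% to 53.2% of those of the loading libraries. Fgf14, a modulator of sodium channels, and Ablim3, an actin-binding gene, were also lower in the preindexed library, with Fgf14 at 17.5 CPM against 441 to 502 CPM. In the other direction stood Cacna1c, a calcium channel gene, at 2569 CPM against 59.4 to 63.4 CPM, and Rn18s-rs5, a ribosomal RNA feature, at 54123 CPM against 1451 to 1573 CPM. Mitochondrial genes made up 4.92% of mouse UFIs of 3T3 nuclei in the preindexed library and 0.675% to 0.698% in the loading libraries, with mt-Cytb at 3055 CPM against 60.1 to 63.2 CPM.

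Gene length moved with these ratios. Of the 13609 genes, 94.7% had a length in RefSeq (GRCm38.p6). Among 225 genes shorter than 5 kb at 20 CPM or more, 76.0% were past 2-fold higher in the preindexed library and 3.11% were lower, with a median log2 ratio of 2.45. For 1495 genes of 50 to 100 kb, 11.04% were higher and 18.7% were lower, with a median of -0.34. The order turned for the longest genes, since of 532 genes over 200 kb 23.3% were higher and 12.2% were lower, with a median of 0.19. Short genes as a class made up 97533 CPM in the preindexed library and 10560 to 10960 CPM in the loading libraries. In the preindexed library Rn18s-rs5 alone was at 54123 CPM, and the mitochondrial genome summed to 49239 CPM. Together these exceed the class sum, so not all of these RNAs lay in the class. Which of them did was not tested. The part of length in the list results was not tested.

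The 293T nuclei of the same libraries show which of these differences were shared. Across 3132 matched genes that reached 50 CPM in both lines, in the preindexed library or at the loading median, 1072 were past 2-fold in 3T3 between the preindexed library and the loading median, and 802 of these were within 2-fold in 293T. Another 121 were higher and 95 were lower in both lines, and 54 were past 2-fold in opposite directions. The log2 ratios of the lines had a Pearson r of 0.30 and a Spearman rho of 0.26 across genes, which are not independent points and share their libraries. In 293T nuclei MALAT1 was at 967 CPM in the preindexed library against 3198 to 3611 CPM, ACTB was at 443 CPM against 74.1 to 88.9 CPM, and CACNA1C was at 318 CPM against 54.2 to 60.7 CPM. These followed Malat1, Actb and Cacna1c of the 3T3 nuclei in direction. GALNTL6 was at 9.45 CPM and 10.5 to 16.9 CPM in 293T, and EGR1 was at 29.6 CPM and 29.8 to 37.6 CPM, without the spans of Galntl6 and Egr1 in 3T3, and a difference between the lines was not tested. FN1 was at 29.3 CPM against 106 to 117 CPM, the opposite direction to Fn1.

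**Figure D3:**
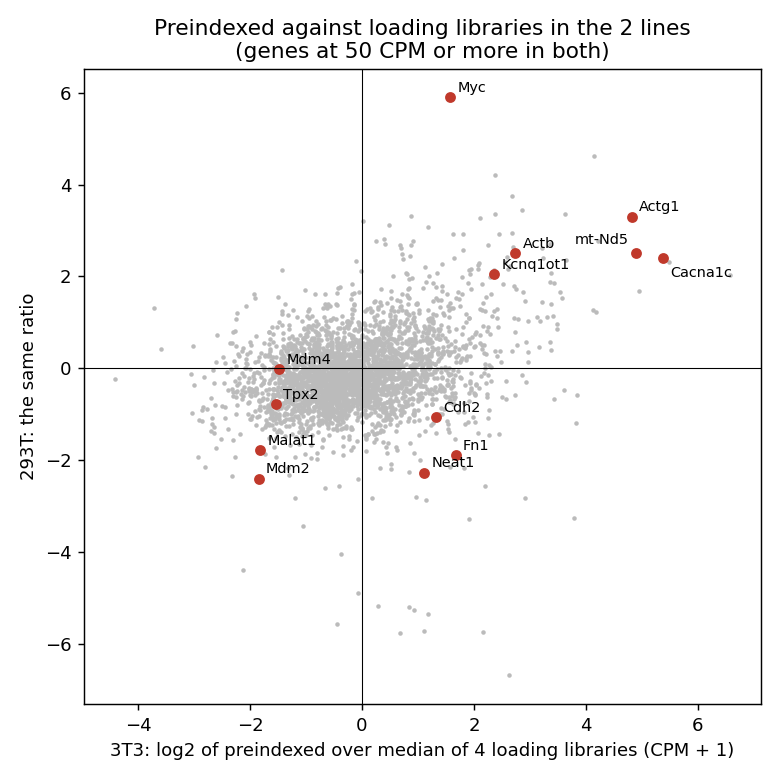
Log2 ratio of the preindexed library over the median of the 4 loading libraries, with 1 CPM added to each side, in 3T3 nuclei (x axis) and in 293T nuclei (y axis) for 3132 matched genes. The thin lines mark 0. Malat1 and Mdm2 lie low in both lines, Actb, Actg1 and Cacna1c lie high in both, and Fn1, Cdh2 and Neat1 are higher in 3T3 and lower in 293T.

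Set against 293T itself, most matrix genes stood on the 3T3 side. Species and line differ and the rule that chose the nuclei used this contrast, so the values are given with no test. Of 10966 matched genes with 20 UFIs or more in one of the lines in each library, 15.0% were past 2-fold higher in 3T3 in all 5 libraries and 26.0% were past 2-fold lower. Of 22 matrix genes, 18 were higher and 1, Loxl2, was lower. Among growth factor receptors 8 of 13 were higher, with Pdgfra at 372 CPM against 0.668 CPM for PDGFRA in the preindexed library, and Egfr was lower. Of 21 S phase genes 6 were lower in 3T3 in all 5 libraries, a share near the 26.0% of all matched genes, and none was higher. Their median log2 ratio of 3T3 over 293T was -2.01, against -0.41 for all matched genes. The S phase list summed to 1123 CPM in 3T3 and 2553 CPM in 293T in the preindexed library. In the loading libraries it summed to 470 to 476 CPM in 3T3 and 2680 to 2782 CPM in 293T. Rrm2 was at 22.1 CPM against 508 CPM for RRM2 in the preindexed library.

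Among nuclei of the preindexed library, spread was measured by the Fano factor, the variance of a gene's UFIs over its mean, which is about 1 for counting error. Each nucleus was thinned to 5000 mouse UFIs, which 1141 of 1170 nuclei reached. Values depend on that depth, and at 2500 UFIs 93 genes were past the same limit. Of 6567 genes with a mean of at least 0.1 UFI, 301 had a Fano factor above 2, which is 4.58%, and the median was 1.22. The highest values were those of Rn18s-rs5, at 53.2, Neat1, at 44.9, mt-Rnr1, at 25.7, Malat1, at 22.7, Lars2, at 20.2, and mt-Rnr2, at 20.03. Neat1 had a mean of 43.0 UFIs per nucleus and reached 648 in 1 nucleus. Cemip, which breaks down hyaluronan, followed at 15.4, and was seen in 50.5% of nuclei with up to 81 UFIs in 1. Hmga2, a chromatin protein of embryonic and dividing cells, had a Fano factor of 12.6 and a mean of 37.9 UFIs, and Slit3, a secreted guidance factor, was at 9.54. The matrix list had 10 of 21 genes above 2, led by Thbs1 at 5.45, Fn1 at 4.69 and Tnc at 4.45. Integrins and adhesion genes had none of 14 above 2. Egr1 was at 2.77, with UFIs in 31.2% of nuclei.

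Of the loading libraries, 208, 147, 68 and 18 nuclei reached 5000 UFIs, at rising loading, and the last was left out. Neat1 had Fano factors of 51.6, 19.3 and 15.6, and Malat1 was at 45.2, 22.9 and 28.9. Cemip was at 3.71, 3.60 and 2.63, with a mean of 5.74, 7.27 and 7.37 UFIs against 2.41 in the preindexed library.

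Genes of G2 and M phase were unevenly spread over nuclei, more so in the loading libraries than in the preindexed one. With 1000 UFIs kept per nucleus, a setting added after the data were seen, the summed UFIs of the G2 and M phase list were 5 or more in 16.8% to 23.7% of 3T3 nuclei of the loading libraries, while 44.1% to 54.4% of nuclei had none. In the preindexed library 6.92% had 5 or more (95% exact interval 5.54 to 8.53) and 40.8% had none. The Fano factor of the summed list was 6.40 to 7.33 in the loading libraries and 2.16 in the preindexed library. For the S phase list it was 1.41 to 1.80 in the loading libraries and 1.41 in the preindexed one. At the highest loading 2297 of 7476 nuclei reached 1000 UFIs and at the lowest 1459 of 1668, so the kept share of nuclei differed between libraries.

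**Figure D4:**
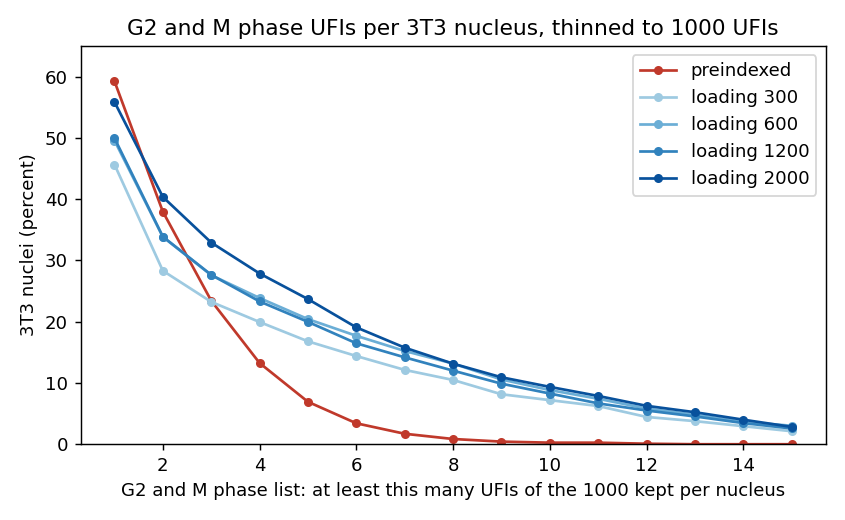
Percent of 3T3 nuclei (y axis) with at least a given number of UFIs of the G2 and M phase list among 1000 kept UFIs (x axis), with 1 line per library. The loading libraries keep a long tail, with 16.8% to 23.7% of nuclei at 5 or more, and the preindexed library falls to 6.92% there.

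Mouse brain nuclei gave the comparison over libraries, 5 of 3T3 against 7 of brain, which asks what marks the fibroblast line among mouse nuclei. The 5 libraries of 3T3 carry different labels and are not replicates of each other. Summed UFIs of 15479 genes with a shared symbol were tested with edgeR's quasi-likelihood test. At a Benjamini-Hochberg adjusted p under 0.05, 5537 genes were higher in 3T3, which is 35.8%, and 6650 were lower, which is 43.0%. Tissue, experiment and counting cannot be told apart in this contrast, and p-values measure only the spread between these libraries, of which the 4 loading ones were nearly alike. With those 4 summed into 1, so that 2 libraries stood against 7, 34.0% of 18070 genes were higher and 34.1% were lower. Of the 24 matrix genes tested, 20 were higher in 3T3 and 2 were lower, with a median log2 difference of 4.96 against -0.21 for all genes tested. In the summed fit 20 of 25 were higher and 1 was lower, with Timp3 not called (adjusted p = 0.24).

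Here CPM is the share of UFIs on the shared genes. Mmp2 was at 341 to 452 CPM in 3T3 libraries and at 0.345 to 0.874 CPM in brain libraries, a log2 difference of 9.13 (adjusted p = 2.9e-13). Prrx1 was at 1150 to 1734 CPM in 3T3 and 3.49 to 5.65 CPM in brain, a log2 difference of 7.69 (adjusted p = 4.8e-13). In the summed fit of the same test the adjusted p was 2.7e-09 for Mmp2 and for Prrx1. Tead4 differed by 7.45 and Cald1 by 4.55 on the log2 scale, and no 3T3 library overlapped a brain library for either. The same lack of overlap held for 10127 of the 15479 genes tested. The lower matrix genes were Postn and Timp3, with Timp3 at 6.57 to 40.2 CPM in 3T3 and 14.6 to 178.8 CPM in brain. For Timp3 the 2 frozen preindexed brain libraries were at 178.8 and 154.7 CPM, and the other 5 were at 14.6 to 26.4 CPM, within the 3T3 range. Those 2 libraries held 261 and 209 nuclei with at least 10 UFIs of kidney or liver markers, whose part in the Timp3 result was not tested. Fbn1 was at 36.8 to 130 CPM and 41.0 to 65.8 CPM, with an adjusted p of 0.32. Dcn, also not called (adjusted p = 0.37), was at 9.12 CPM in the preindexed and 0.734 to 2.11 CPM in the loading libraries. In brain Dcn was at 1.77 to 5.41 CPM. Of 16 integrin and adhesion genes 10 were higher in 3T3 and 4 were lower. Among the lower ones, Thy1 was at 1.45 to 93.8 CPM against 56.4 to 133.7 CPM. Thy1 was not called in the summed fit (adjusted p = 0.19).

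Over all genes tested against brain, 35.8% were higher in 3T3 and 43.0% were lower. All 22 genes of G2 and M phase were higher in 3T3, and 18 of 21 S phase genes were. Top2a was at 250 to 303 CPM against 0.172 to 1.25 CPM. Growth factor receptors were higher in 10 of 13 genes, with Egfr lower, and YAP and TEAD genes were higher in 13 of 15, against 35.8% of all genes. Lats2, a kinase that restrains YAP, was lower at 0.484 to 1.47 CPM against 11.8 to 19.6 CPM. All 6 neuron markers were lower in 3T3, against 43.0% of all genes. Syt1, a synaptic vesicle calcium sensor, was at 2.28 to 4.55 CPM against 2819 to 3151 CPM. Egr1 had a log2 difference of 0.01 (adjusted p = 0.99), with 5 values in 3T3 from 0.365 to 148 CPM that lay on both sides of the brain range of 12.7 to 29.1 CPM. Meg3, a maternally expressed noncoding RNA, had a log2 difference of -5.13, at 55.4 to 142 CPM against 2746 to 3314 CPM. Kidney and liver markers were also seen in some brain libraries, where 0 to 261 nuclei carried at least 10 UFIs of them, and without such nuclei 5699 genes were higher and 6589 were lower in 3T3.

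By the rule of largest change with at least 20 CPM in every library of the higher side, 3T3 was led by Il1rl1, the receptor of IL-33, at 2243 to 2513 CPM against 0.0807 to 0.518 CPM in brain, a log2 difference of 12.53 (adjusted p = 3.7e-13). Among 3T3 libraries it was at 2442 CPM over all mouse UFIs in the preindexed library and 2176 to 2242 CPM in the loading libraries. The next by fitted difference were Usp10, a ubiquitin protease, at 110.6 to 122.8 CPM in 3T3, and Gm12840, at 53.6 to 102 CPM. All brain libraries together held 2 UFIs of Usp10 and 1 of Gm12840, so their fitted differences of 12.15 and 11.94 depend on the prior count. They were 13.51 for Usp10 without replicate 2 of the frozen preindexed brain libraries and 12.77 for Gm12840 without the fresh preindexed one, the only brain library with its UFI. Lox, Hmga2 and the interferon-inducible Ifi207 and Ifi202b came after them with log2 differences of 10.23, 10.00, 9.92 and 9.64, and Gm9320 was the last of the 8. The preindexed library held the highest levels of Lox and Hmga2, with Lox at 674 CPM against 167 to 174 CPM in the loading libraries and Hmga2 at 7827 CPM against 975 to 1065 CPM. Without it their log2 differences were 9.56 and 8.77, and DESeq2 gave Hmga2 no adjusted p. Ifi207 was at 10.71 without replicate 1 of the frozen preindexed brain libraries. The 8 genes leading on the brain side, among them Nptx1, Syt4 and Tro, were all listed at 0 in every 3T3 library, as were 28 genes in all with at least 20 CPM in every brain library. Nptx1, a secreted synaptic protein, was at 54.0 to 115 CPM in brain, which is at least 260.6-fold over 3 counts in the deepest 3T3 library. The part of the annotation in genes listed at 0 on one side was not tested.

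**Figure D5:**
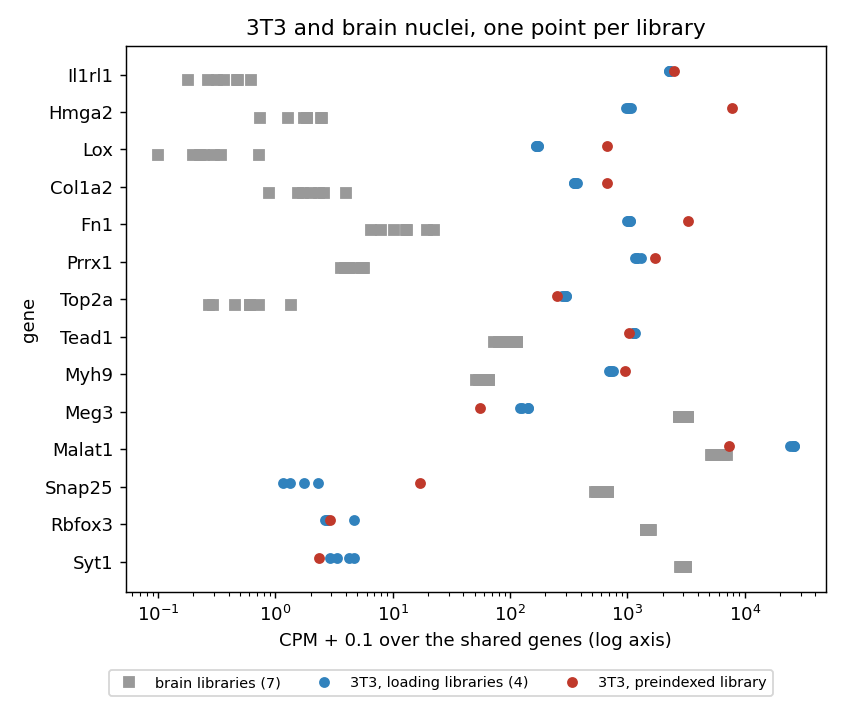
CPM plus 0.1 over the shared genes on a log axis for 14 genes, with 1 point per library, for brain (grey squares), the preindexed 3T3 library (red) and the loading 3T3 libraries (blue). Prrx1, Fn1, Lox, Hmga2 and Il1rl1 lie far to the right in 3T3, Syt1, Rbfox3 and Snap25 in brain, and the preindexed Malat1 value lies next to the brain values.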

How the data were processed

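Nuclei of mixed NIH/3T3 and HEK293T cells, and of mouse brain, were measured by snHH-seq. The authors deposited counts, whole numbers of UFIs per gene and barcode with no normalization, and the submitters' processing notes name cutadapt, UMI-tools, STAR, featureCounts and Scanpy with the builds GRCh38, GRCm38 and mm10. Every deposited barcode was kept and no doublet caller was run on top of the species rule. The members and gene lists were chosen with earlier results of these data known.

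UFIs of 3T3 barcodes were summed per library and scaled to 1000000 mouse UFIs (CPM). A gene was called between mix libraries when it was past 2-fold against each loading library with at least 20 UFIs in the higher one, and genes were matched to human ones by capitalised symbol. Nuclei were thinned without replacement for per-nucleus values. Binomial and Poisson intervals (95%) cover counting error only. 3T3 and brain libraries were compared over 31069 shared symbols with edgeR 4.0.16 (TMM, filterByExpr, quasi-likelihood test, Benjamini-Hochberg adjustment, threshold 0.05). On simulated data for this comparison with 15209 genes the test recovered 59.0% of 100 genes changed 2-fold and 90.0% of 100 changed 4-fold. It also made 4 false calls. Few genes were changed there, equally up and down, while most genes were called against brain. The simulated rates therefore do not give the recovery in the contrast with brain. For 4 of 7 brain libraries the title and the treatment label name opposite primers, and titles were used.

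Named genes were the list members a paragraph turned on, the 10 highest by median CPM, by Fano factor and by ratio between libraries, and the 8 highest and 8 lowest against brain with at least 20 CPM in every library of the higher side and no overlap. A gene that the rule names is not reported here. Alternatives covered DESeq2 1.42.0, upper-quartile scaling, the low-count filter, a fold threshold, each library left out, brain subsets, species thresholds of 75% and 98%, 2000 mouse genes, the weighting of nuclei, a minimum of 100 UFIs and thinning to 2500 UFIs.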

Additional observations from a re-analysis of the deposited data

Results flagged for a closer look

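Of 18 values examined over the 5 species-mix libraries, 12 placed the preindexed library apart from the loading libraries by Dixon's criterion (a gap over 0.71 of the range). Chance does so in about 1 of 20 groups of like samples, but here 4 nearly alike libraries stood against 1, so these values describe that separation again and are no test of it. The values share the same 5 libraries and are not independent. Summed CPM of 3T3 nuclei in the preindexed library was 9406 for matrix genes, against 4022 to 4131 in the loading libraries, 2167 for secreted factors, against 548 to 560, and 6421 for actin and contraction genes, against 3688 to 3715. It was 863 for serum and immediate early genes, against 649 to 708, 1123 for S phase genes, against 470 to 476, and 126 for Hox genes, against 72 to 76. It was lower for G2 and M phase genes, at 1568 against 2521 to 2707, for the cyclin D, CDK inhibitor and p53 list, at 1221 against 1497 to 1538, and for nuclear and noncoding RNAs, at 18220 against 29036 to 31114. The median of 10898 UFIs per 3T3 nucleus, the mitochondrial share of 4.92% and the share of 3T3 among barcodes of 50.4% also stood apart.

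Fn1 and Cdh2, the gene of N-cadherin, differed in opposite directions in the lines. Fn1 had a log2 ratio of preindexed over loading libraries of 1.68 in 3T3 and -1.88 in 293T nuclei, and Cdh2 had 1.32 and -1.06. The difference between the lines was not tested.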

How the results depend on the processing

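No paired analysis was possible because no label ties a mix library to a brain library, and 3T3 and 293T nuclei were set side by side within each mix library with no test. The summed matrix CPM of the preindexed library was 9298 with at least 98% mouse UFIs and 9314 as a mean over nuclei. With at least 2000 mouse genes per nucleus it was 3905 at a loading of 600 and 4150 at 2000, from 244 and 51 nuclei. Thinned to 2500 UFIs, 93 genes had a Fano factor above 2, against 301 at 5000. With at least 100 UFIs, 2357 genes were higher and 1177 were lower in the preindexed library, against 3522 and 1517. Against brain, a required fold above 2 left 3200 genes higher in 3T3 and 4770 lower, and without the filter on low counts 6026 were higher and 9185 were lower. Leaving out each of the 12 libraries gave 5368 to 5842 genes higher and 6230 to 7948 lower, the most lower ones without the preindexed library. Upper-quartile scaling moved the median log2 difference of all genes from -0.21 to -0.01, with 6159 higher and 6114 lower. DESeq2 gave no adjusted p for Hmga2, with a log2 difference of 10.00. Under the alternatives, 351 values of named genes kept their direction and call. Of the main results, 68 values moved by less than 1.5 times for a count or within the 95% interval for a level, which does not say that the same genes were called. Few nuclei of the loading libraries reached 5000 UFIs, which limits their Fano factors.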

Other observations

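Families chosen after the data were seen gave further differences between 3T3 libraries. Of 25 interferon response genes with enough UFIs, 21 were past 2-fold higher in the preindexed library than in each loading library and none was lower, where 25.9% of all genes were higher. Mx1, an antiviral GTPase, was at 108 CPM in the preindexed library and at 2.73 to 4.42 CPM in the loading libraries, and Ifitm3, which blocks viral entry, was at 166 CPM against 2.71 to 5.96 CPM. Summed over the family, 3T3 nuclei held 1959 CPM against 408 to 431 CPM. The matched human genes summed to 89.3 CPM in 293T nuclei of the preindexed library and 449 to 461 CPM in those of the loading libraries. Of 76 ribosomal protein genes 66 were higher and none was lower in the preindexed library of 3T3, with Rplp1 at 76.5 CPM against 3.21 to 5.98 CPM. Of 27 mitochondrial genes 25 were higher and none was lower. Both families were also higher in 293T nuclei of the preindexed library, with the matched human genes at a summed 3638 CPM against 990 to 1045 CPM for ribosomal proteins and 135854 CPM against 25888 to 29875 CPM for the mitochondrial genome. Most ribosomal protein transcripts are short, and the part of length in these counts was not tested.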
